A study of Mus musculus with 6 samples.

Results

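Antioxidant and glutathione enzymes are described here in mouse ependymal cells, the ciliated cells that line the brain ventricles. The set holds the 55 genes, of 47643 listed, whose symbol names a superoxide dismutase, catalase, a peroxiredoxin, sulfiredoxin, a thioredoxin or thioredoxin reductase, a glutathione peroxidase, a glutathione S-transferase (GST), an enzyme of glutathione synthesis or recycling, quinone reductase or a heme oxygenase. The rule reads gene symbols and uses no measured value, but it was written with earlier results of these data known. RNA of sorted cells was sequenced in bulk from 3 samples labelled CKO and 3 labelled CTR. CKO samples came from adult mice with a conditional knockout of Ccn1, a secreted matricellular protein, and CTR samples from their control mice. Tamoxifen was given to the mice to switch on recombination, and recombined cells made GFP. Cells were taken from the ventricular-subventricular zone 2 days after tamoxifen and sorted on GFP, with the gate set by hand against wild-type cells. The sources used here do not name the recombinase, its promoter, the alleles of the control mice or the number of mice in a sample. The labels call the molecule total RNA and describe it as cytoplasmic. Since nothing states that samples of a genotype came from separate mice, p-values measure the spread between these samples, which may be technical.

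Superoxide, a by-product of respiration and of some oxidases, is turned into hydrogen peroxide by superoxide dismutases. Peroxides are then removed by catalase, by peroxiredoxins and by glutathione peroxidases. Most peroxiredoxins, though not Prdx6, draw electrons from thioredoxin, and most glutathione peroxidases draw them from the tripeptide glutathione. GSTs join glutathione to reactive electrophiles such as the aldehydes left by lipid peroxidation. Many of these genes are induced by NRF2 (Nfe2l2), a transcription factor that binds the antioxidant response element and is held down by KEAP1 in unstressed cells.

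The libraries held 13401499 to 15689579 estimated counts. Ccn1, listed under its older symbol Cyr61, had 29.8, 17.7 and 38.5 CPM (counts scaled to library size) in CKO, against 110.2, 148.7 and 142.1 CPM in CTR. The groups did not overlap, and the log2 difference was -2.22 ± 0.38 (SE), with an unadjusted p of 0.000415 by edgeR's quasi-likelihood test. Its adjusted p was 1.0 by edgeR and 4.04e-06 by DESeq2. All 12 ependymal markers were detected, and their summed level was 29450 to 30430 CPM in CKO and 30000 to 31160 CPM in CTR. The summed astrocyte and neural stem cell markers, none of which was at 0, reached 4953 to 5932 CPM in CKO and 5464 to 7211 CPM in CTR. Summed markers were 316 to 814 CPM in CKO and 522 to 650.1 CPM in CTR for choroid plexus, 179.9 to 211 CPM in CKO and 184 to 206 CPM in CTR for microglia, and 402 to 456 CPM in CKO and 201 to 619.8 CPM in CTR for the oligodendrocyte lineage. Among other lists, they were 929 to 1195 CPM in CKO and 700.5 to 1237 CPM in CTR for mural cells and fibroblasts, 387 to 509 CPM in CKO and 319 to 561 CPM in CTR for neurons, and 241 to 385 CPM in CKO and 317 to 326 CPM in CTR for dividing progenitors and neuroblasts. Ppp1r1b carried most of the neuron sum, with means of 434 CPM in CKO and 455 CPM in CTR, and Rbfox3 and Slc17a7 were at 0. Acta2 (means of 498 CPM in CKO and 457 CPM in CTR) and Myl9 (389 and 364 CPM) led the mural and fibroblast list. Of its 13 markers, 8 averaged below 1 CPM, with Dcn and Lum at 0. The 11 endothelial markers summed to 485 to 510.2 CPM in CKO and 349 to 627 CPM in CTR. Slc2a1 carried nearly all of this, with means of 496 CPM in CKO and 506 CPM in CTR, and 8 were at 0 in every library, Pecam1, Cdh5 and Cldn5 among them. In bulk RNA, fewer cells of a type and less RNA per cell cannot be told apart.

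Of the 55 genes, 49 had a count in some library and 45 passed the filter on low counts. In TPM, which is scaled for transcript length and so allows genes to be set side by side, 23 of the genes averaged above 100 TPM over the 6 libraries, 20 averaged 10 to 100 TPM, and 6 lay lower without being 0. The summed level of the set was 17140.1, 17709 and 16034 TPM in CKO, against 18699.5, 17372 and 18350.4 TPM in CTR. The groups overlapped, and the set made up 1.603% to 1.870% of all TPM in a library. The 8 most abundant genes carried 69.7% to 72.7% of it. In order of mean level these were Gstm1, Prdx6, Gpx4, Sod1, Mgst1, Gpx8, Gstm5 and Gstp1. Gstm1 ranked 26 among all genes by mean TPM, Prdx6 39, Gpx4 54 and Sod1 56.

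**Figure D1:**
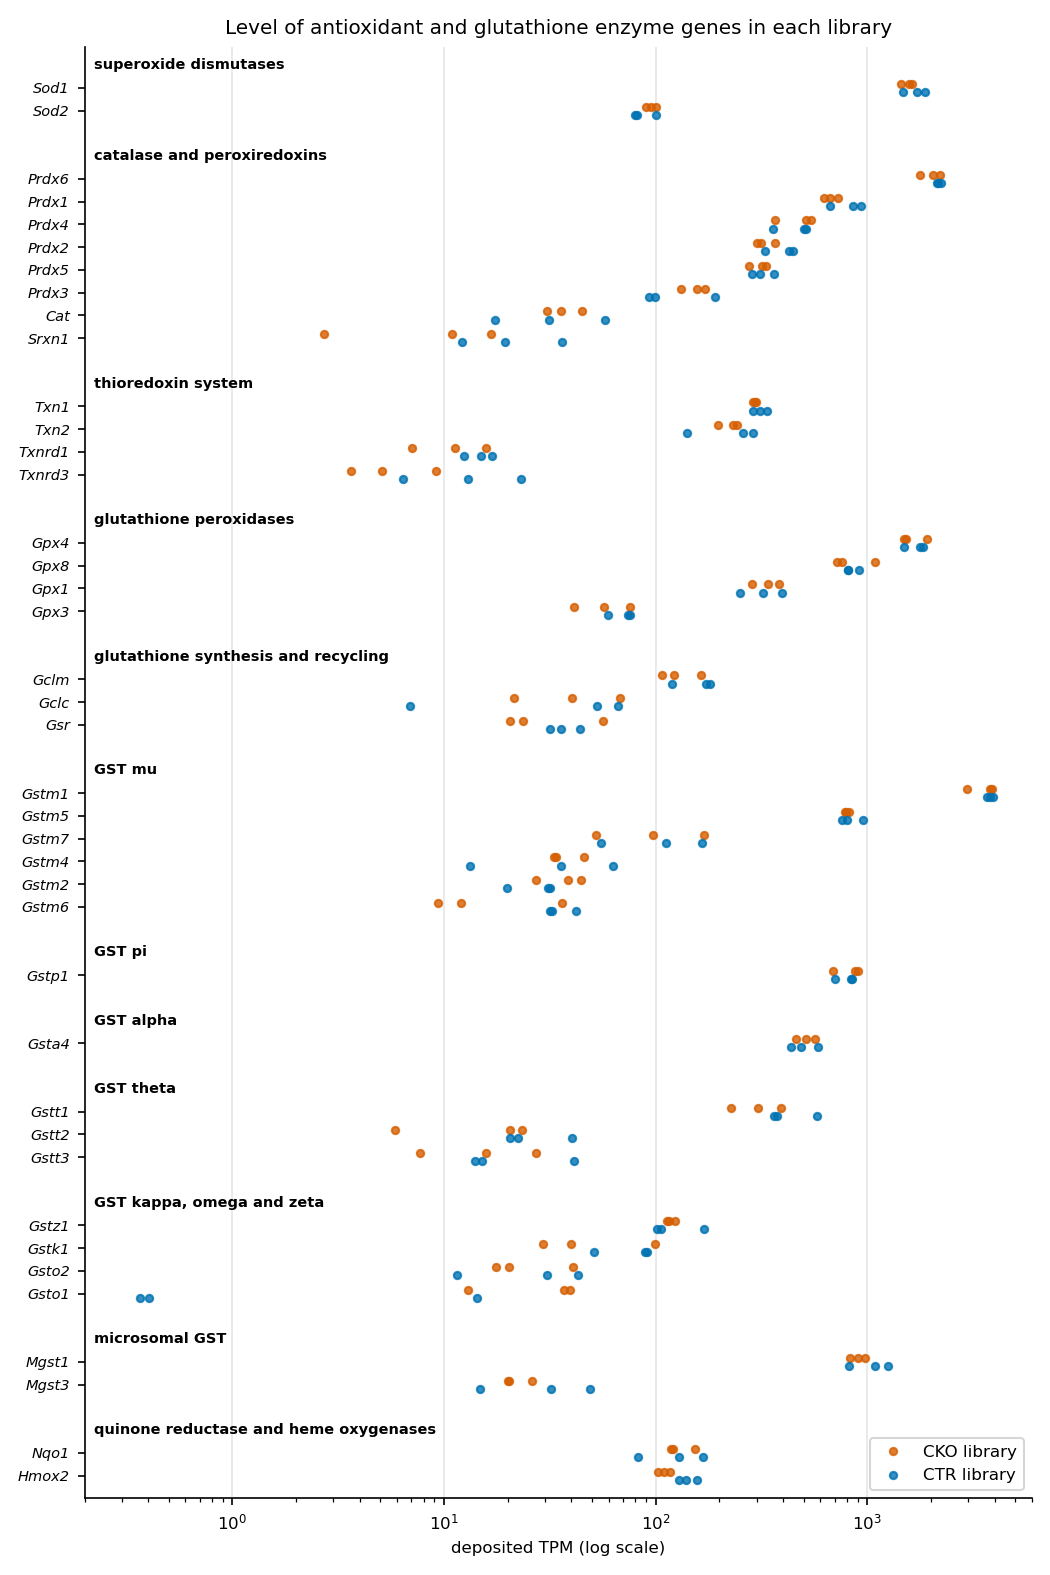
Deposited TPM (log scale) of the 40 members with more than 3 counts in every library, grouped by role. Each point is a library, CKO above CTR in each row. Gstm1 lies at the top of the scale in all 6 libraries, between 2959 and 3923 TPM.

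The order of the highest levels was stable only in places. Gstm1 exceeded Prdx6 in 6 of 6 libraries, by 1578 TPM on average, more than the larger of their standard deviations (357 TPM). This order rests on the length scaling. In CPM, which is not scaled for length, Prdx6 had the higher mean, 3584 CPM against 3331 CPM for Gstm1. Prdx6 exceeded Gpx4 in 6 of 6 libraries, by 417 TPM. Gpx4 and Sod1 differed by 52.5 TPM on average, less than their spread, and Gpx4 was the higher in 3 of 6 libraries. Mgst1, Gpx8, Gstm5, Gstp1 and Prdx1 followed with steps from one to the next that were all below their spread.

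The superoxide dismutases were led by the cytosolic copper and zinc enzyme Sod1. Sod1 had 1570, 1440.4 and 1624 TPM in CKO, against 1724, 1468 and 1879.6 TPM in CTR. The groups overlapped, and its log2 difference was -0.14 ± 0.17 (SE). The mitochondrial manganese enzyme Sod2 had 99.8, 94.7 and 90.0 TPM in CKO, against 79.7, 99.9 and 81.6 TPM in CTR. Within a library Sod1 exceeded Sod2 by 14.7 to 23.0 times. Of the 31-base words of Sod2 transcripts, 26.7% also occur in another annotated gene. Its estimated counts were whole in 0 libraries, so its level is less certain. The secreted enzyme Sod3 had 73, 411 and 158 counts in CKO, against 13, 0 and 184 counts in CTR. Sod1 made up 93.9% ± 0.7 of the TPM of its class in CKO and 94.9% ± 1.1 in CTR (SD, n = 3 each).

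Among the enzymes that remove hydrogen peroxide, Prdx6 was the most abundant. Prdx6, a peroxiredoxin with a single active cysteine that also acts on oxidised phospholipids, had 2036, 2203 and 1772 TPM in CKO, against 2149, 2136 and 2227 TPM in CTR. The third CKO library was the lowest and the groups overlapped, with a log2 difference of -0.11 ± 0.11 (SE). The cytosolic Prdx1 had 729, 623 and 663 TPM in CKO, against 930.8, 668 and 853 TPM in CTR. Prdx2, also cytosolic, had 316, 367 and 301 TPM in CKO, against 447, 427 and 328 TPM in CTR. Both had overlapping groups, with log2 differences of -0.25 ± 0.18 for Prdx1 and -0.31 ± 0.20 for Prdx2 (SE). Without the first CTR library these were -0.10 for Prdx1 and -0.14 for Prdx2.

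The endoplasmic reticulum enzyme Prdx4 averaged 474 ± 93.4 TPM in CKO and 456 ± 86.3 TPM in CTR (SD, n = 3 each). Prdx5, found in mitochondria, peroxisomes and cytosol, averaged 308 ± 28.9 TPM in CKO and 319 ± 39.1 TPM in CTR, and the mitochondrial Prdx3 averaged 153 ± 20.1 TPM in CKO and 127 ± 54.4 TPM in CTR. Catalase, the peroxisomal enzyme encoded by Cat, was far below them. Cat had 35.9, 30.5 and 44.8 TPM in CKO, against 31.2, 57.5 and 17.4 TPM in CTR. Srxn1, the sulfiredoxin that restores over-oxidised peroxiredoxins, had 2.72, 10.9 and 16.7 TPM in CKO, against 19.3, 12.2 and 35.9 TPM in CTR.

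In the thioredoxin system the carrier proteins were abundant and the reductases low. Cytosolic Txn1 averaged 294 ± 5.1 TPM in CKO and 312 ± 25.3 TPM in CTR, and mitochondrial Txn2 averaged 224 ± 22.9 TPM in CKO and 229.8 ± 78.1 TPM in CTR (SD, n = 3 each). The cytosolic reductase Txnrd1, which returns thioredoxin to its reduced form with NADPH, averaged 11.4 ± 4.4 TPM in CKO and 14.7 ± 2.3 TPM in CTR. The mitochondrial reductase Txnrd2 had 0.050, 24.2 and 26.7 TPM in CKO, against 0, 2.23 and 6.97 TPM in CTR. Txnrd3, best known from testis, had 3.62, 9.16 and 5.11 TPM in CKO, against 12.9, 6.39 and 23.2 TPM in CTR.

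Of the 8 glutathione peroxidase genes, Gpx4 and Gpx8 led. Gpx4, which reduces lipid hydroperoxides in membranes, had 1526, 1916 and 1485 TPM in CKO, against 1834, 1773 and 1487 TPM in CTR. Gpx8, a membrane enzyme of the endoplasmic reticulum, had 756, 715 and 1092 TPM in CKO, against 812, 912 and 811 TPM in CTR. For Gpx8 the CKO group held both the highest and the lowest library. Of the 31-base words of Gpx4 transcripts, 38.9% also occur in another annotated gene, mainly the pseudogene Gpx4-ps2. This can make its level less certain, though its estimated counts were whole in all 6 libraries. Log2 differences were -0.05 ± 0.17 for Gpx4 and 0.02 ± 0.21 for Gpx8 (SE).

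Gpx1, the widespread cytosolic form, averaged 337 ± 48.8 TPM in CKO and 322 ± 72.4 TPM in CTR (SD, n = 3 each), so that Gpx4 exceeded it by 3.87 to 7.09 times within a library. The secreted Gpx3 averaged 57.8 ± 17.2 TPM in CKO and 69.9 ± 8.7 TPM in CTR. Gpx7, the near relative of Gpx8 in the endoplasmic reticulum, had 30.1, 43.4 and 18.2 TPM in CKO, against 0.066, 23.5 and 56.0 TPM in CTR. Gpx2 and Gpx5 had no count in any library, and Gpx6 had 98 counts in the first CKO library and 0 in the other libraries.

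The enzymes that make and recycle glutathione lay at moderate levels. Glutamate-cysteine ligase, the rate-limiting enzyme of glutathione synthesis, has a catalytic subunit, Gclc, and a modifier subunit, Gclm. Gclm had 164, 122 and 107 TPM in CKO, against 172, 119.7 and 180.5 TPM in CTR. Gclc had 40.3, 21.4 and 67.6 TPM in CKO, against 6.90, 52.5 and 66.1 TPM in CTR. The modifier thus exceeded the catalytic subunit in every library, by 1.58 to 25.0 times, and the highest ratio came from the first CTR library. Glutathione synthetase, Gss, had 632, 654 and 444 counts in CKO, against 393, 573 and 1 count in CTR. Glutathione reductase, Gsr, averaged 33.6 ± 20.01 TPM in CKO and 37.0 ± 6.1 TPM in CTR (SD, n = 3 each).

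GST genes made up the largest class. The 21 soluble GST genes summed to 6447 ± 677 TPM in CKO and 6860.5 ± 242 TPM in CTR (SD, n = 3 each). Of this, the mu class held 70.4% ± 1.2 in CKO and 70.6% ± 1.3 in CTR. The pi class held 12.8% ± 0.6 in CKO and 11.6% ± 1.2 in CTR, and the alpha class 8.1% ± 1.7 in CKO and 7.3% ± 1.1 in CTR. The theta class held 5.2% ± 0.8 in CKO and 7.1% ± 1.6 in CTR, with 4.94%, 6.18% and 4.59% in CKO libraries against 6.09%, 6.21% and 8.99% in CTR libraries. The kappa, omega and zeta classes together held 3.6% ± 0.3 in CKO and 3.4% ± 0.2 in CTR. All 5 shares had overlapping groups.

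**Figure D2:**
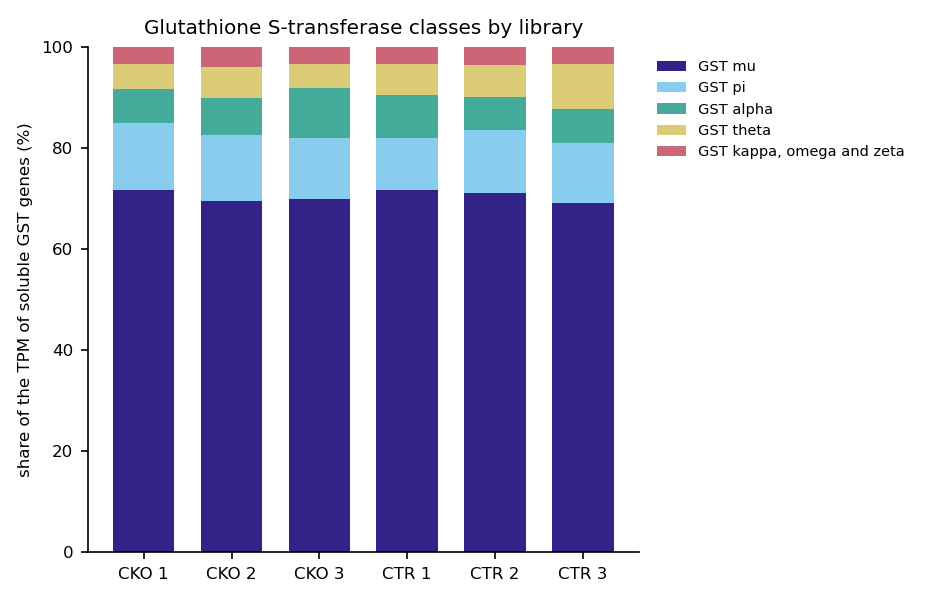
Share of each GST class in the summed TPM of the 21 soluble GST genes (%), 1 bar per library, CKO libraries left of CTR libraries. The mu class takes 69.1% to 71.7% in every library.

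GST genes of a class stand in clusters on the chromosome, and in the mu, theta, alpha and pi clusters a single gene held most of the level. Coordinates are those of GENCODE M21 on GRCm38. The 7 mu genes lie on chromosome 3, in the order Gstm5, Gstm7, Gstm6, Gstm3, Gstm2, Gstm1 and Gstm4, from 107895821 to 108044894. Gstm1 (108012255 to 108017973, minus strand) had 3790.3, 3863 and 2959 TPM in CKO, against 3794, 3659 and 3923 TPM in CTR. The third CKO library was the lowest of the 6, the groups overlapped, and the log2 difference was -0.11 ± 0.13 (SE). Gstm5, at the other end of the cluster (107895821 to 107898686, plus strand), had 791, 782 and 818 TPM in CKO, against 950.3, 759 and 801 TPM in CTR, with a log2 difference of -0.09 ± 0.18 (SE).

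Gstm7 averaged 108 ± 51.0 TPM over the 6 libraries, Gstm4 37.4 ± 16.4 TPM, Gstm2 32.1 ± 8.5 TPM and Gstm6 27.2 ± 13.4 TPM (SD, n = 6 each). Gstm3 had 106 counts in the third CKO library and 0 in the other libraries. Gstm1 exceeded Gstm5 by 3.62 to 4.94 times within a library, and it exceeded Gstm2, its neighbour on the same strand, by 67.0 to 191 times. For Gstm1, 28.8% of the 31-base words also occur in another annotated gene, Gstm2-ps1 first among them, which had no count in any library. Gstm1 held 77.8% ± 2.8 of the mu TPM in CKO and 78.3% ± 1.3 in CTR (SD, n = 3 each).

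The promoter windows of Gstm1, Gstm5 and Gstm2 are shown because these genes of the same cluster differ widely in level. They are RefSeq windows on GRCm38.p6, each running from 250 bases before to 50 bases after an annotated start, written 5′ to 3′ on the gene's strand. Capitals mark, on either strand, matches to the TATA box TATAAA and to the core of the antioxidant response element, searched as TGACNNNGC and TGAGNNNGC, with N for any base.
Gstm1, chr3:108017769-108018068, minus strand: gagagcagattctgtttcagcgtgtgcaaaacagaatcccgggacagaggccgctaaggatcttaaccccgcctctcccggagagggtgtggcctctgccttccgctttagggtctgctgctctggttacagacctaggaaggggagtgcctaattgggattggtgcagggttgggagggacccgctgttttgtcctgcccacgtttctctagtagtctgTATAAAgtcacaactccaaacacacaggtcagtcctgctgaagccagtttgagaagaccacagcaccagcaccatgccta
Gstm5, chr3:107895604-107895903, plus strand: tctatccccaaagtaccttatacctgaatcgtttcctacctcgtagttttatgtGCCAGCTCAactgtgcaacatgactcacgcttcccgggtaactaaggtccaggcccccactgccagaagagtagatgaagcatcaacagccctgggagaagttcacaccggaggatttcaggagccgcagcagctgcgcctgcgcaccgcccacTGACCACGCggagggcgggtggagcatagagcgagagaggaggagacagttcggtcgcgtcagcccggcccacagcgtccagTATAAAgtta
Gstm2, chr3:107986371-107986670, minus strand: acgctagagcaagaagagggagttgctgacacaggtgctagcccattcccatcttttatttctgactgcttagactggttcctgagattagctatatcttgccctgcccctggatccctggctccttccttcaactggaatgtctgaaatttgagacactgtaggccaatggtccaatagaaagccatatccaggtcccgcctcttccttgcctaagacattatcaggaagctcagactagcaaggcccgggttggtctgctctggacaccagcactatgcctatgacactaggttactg

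In these windows the Gstm1 promoter held a TATAAA 30 to 25 bases before the start and neither form of the core. The Gstm5 window held both forms of the core, and the Gstm2 window held none of the motifs. RefSeq lists 2 windows for Gstm1 and 1 for each of the others, and the one shown is that of the start farthest downstream. A match is a description of the letters and says nothing about binding.

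The theta genes Gstt3, Gstt1, Gstt4 and Gstt2 follow each other on chromosome 10 from 75774115 to 75837424, all on the minus strand. Gstt1 (75783813 to 75798584) had 303, 389.9 and 227 TPM in CKO, against 361, 375 and 577 TPM in CTR. The highest library was a CTR library and the lowest a CKO library, but the groups overlapped. Gstt2 averaged 22.1 ± 10.9 TPM and Gstt3 20.2 ± 12.1 TPM over the 6 libraries (SD, n = 6 each), and Gstt4 had no count. Among the alpha genes, Gsta4, whose product acts on the lipid aldehyde 4-hydroxynonenal, averaged 514 ± 52.6 TPM in CKO and 501 ± 75.3 TPM in CTR (SD, n = 3 each). Its chromosome 9 neighbours Gsta1 and Gsta2, and Gsta3 on chromosome 1, had no count in any library.

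Gstp1, the main pi gene, had 876, 904 and 689 TPM in CKO, against 704, 835 and 846 TPM in CTR, with a log2 difference of 0.05 ± 0.16 (SE). The pi genes Gstp1 and Gstp2 adjoin on chromosome 19, and 38.5% of the 31-base words of Gstp1 transcripts also occur in Gstp2, so that their division is uncertain. Estimated counts of Gstp2 were 62, 1 and 1 in CKO and 2, 0 and 0 in CTR. Gstz1, which also serves in tyrosine breakdown, averaged 117 ± 5.6 TPM in CKO and 126 ± 38.1 TPM in CTR, and Gstk1, a mitochondrial and peroxisomal enzyme, averaged 56.1 ± 37.6 TPM in CKO and 77.1 ± 22.4 TPM in CTR (SD, n = 3 each). The omega genes lie next to each other on chromosome 19: Gsto2 averaged 26.3 ± 12.7 TPM in CKO and 28.4 ± 15.9 TPM in CTR, and Gsto1 had 449, 393 and 149 counts in CKO, against 5, 154 and 5 counts in CTR.

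The microsomal GST class was carried by Mgst1, a membrane enzyme with both transferase and peroxidase activity. Mgst1 had 828, 905 and 972 TPM in CKO, against 1256, 1085 and 820.1 TPM in CTR. The CTR group held both the highest and the lowest library, and the log2 difference was -0.26 ± 0.21 (SE). Without the first CTR library it was -0.02, and without the third -0.43. Mgst3 averaged 22.1 ± 3.4 TPM in CKO and 31.9 ± 17.0 TPM in CTR (SD, n = 3 each), and Mgst2 had counts in 1 library of each genotype, 40 in CKO and 29 in CTR.

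Nqo1, a quinone reductase widely used as a readout of NRF2, had 118, 121 and 154 TPM in CKO, against 82.1, 168 and 129 TPM in CTR. Hmox2, the constitutive heme oxygenase, had 109.98, 117 and 102 TPM in CKO, against 157, 129 and 138 TPM in CTR. The inducible Hmox1 had 0, 0 and 92 counts in CKO, against 306, 0 and 226 counts in CTR. In the 3 libraries with Hmox1 counts, Hmox2 was 10.3 to 18.8 times higher in TPM.

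Low genes of the set were caught in some libraries and missed in others. Of the 45 tested members, Gss, Gpx7, Txnrd2, Sod3 and Hmox1 had at least 1 library at 3 counts or fewer. Among all genes averaging 50 to 200 counts, 77.5% had such a library, and 3 of the 4 members in that range did. At 200 to 400 counts the share was 32.8% of genes and 1 of 7 members, and at 400 to 800 counts 11.4% of genes and 1 of 6 members. None of the 4 members at 800 to 1600 counts and of the 24 members above that had one. A library at 0 for such a gene does not show that the gene was off.

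**Figure D3:**
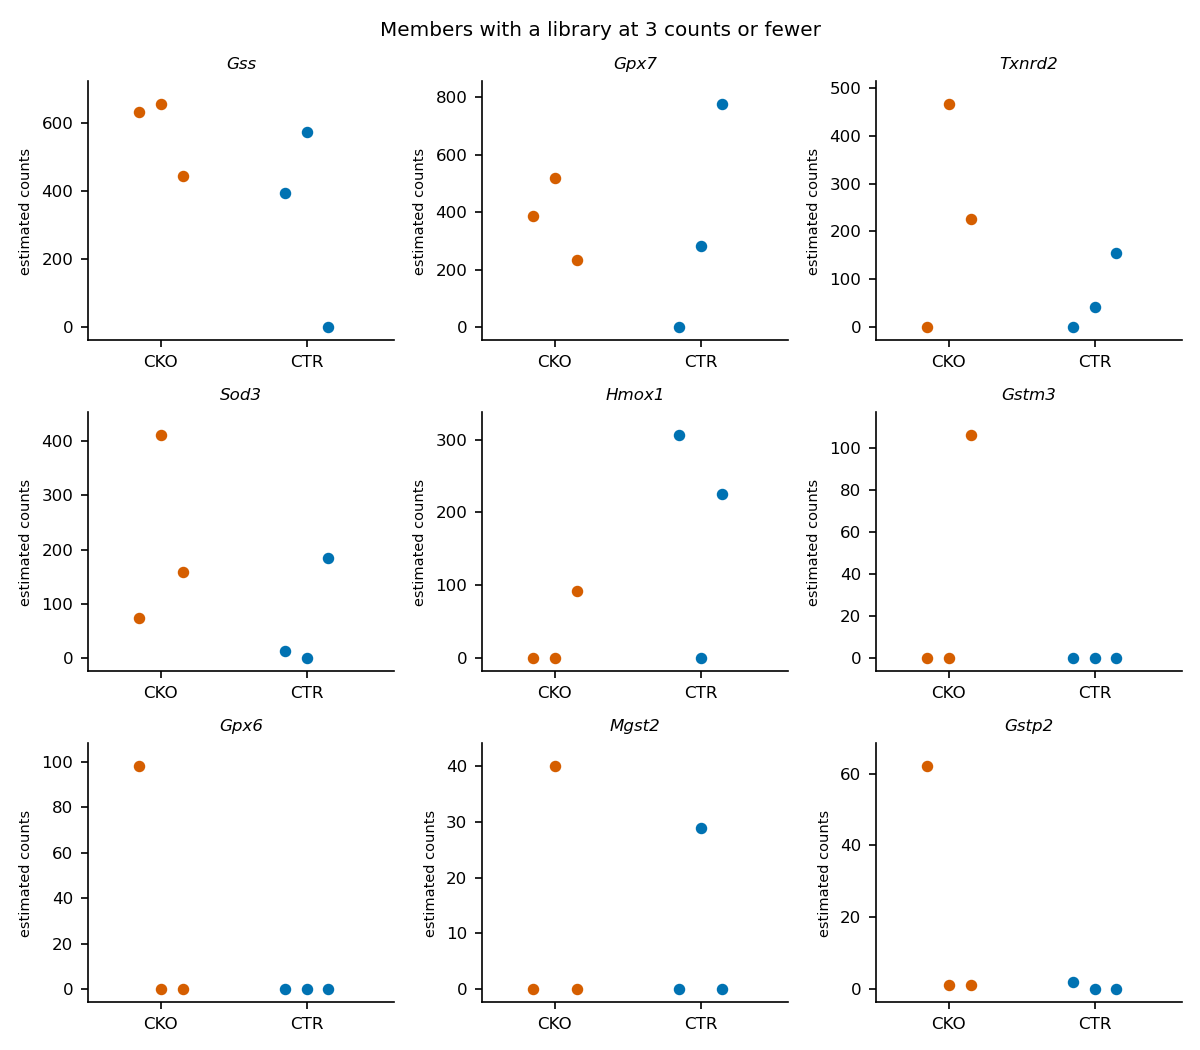
Estimated counts per library of the 9 members that had a library at 3 counts or fewer and a count elsewhere, with CKO left of CTR. Gss has 444 to 654 counts in CKO, and 393, 573 and 1 count in CTR.

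No member differed between CKO and CTR at an adjusted p of 0.05 by edgeR, DESeq2 or limma-voom. Over all 11574 genes tested, edgeR called 0.0% and DESeq2, which tested 11823, called 1.69%. At an unadjusted edgeR p of 0.05, 0 of the 45 tested members passed, where 2.75% of all genes did (1.43% higher in CKO, 1.31% lower), and limma-voom had 1 member where it had 5.25% of all genes. Of the tested members, 16 were higher in CKO and 29 lower, with a median log2 difference of -0.09, where 49.7% of all genes were lower with a median of 0.00. The share of lower members was not tested. Beside it, the log2 difference was below 0 for all 11 tested markers of astrocytes and neural stem cells, with a median of -0.36, and the 12 ependymal markers had a median of -0.01. The part of the marker difference in the members' difference was not tested.

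**Figure D4:**
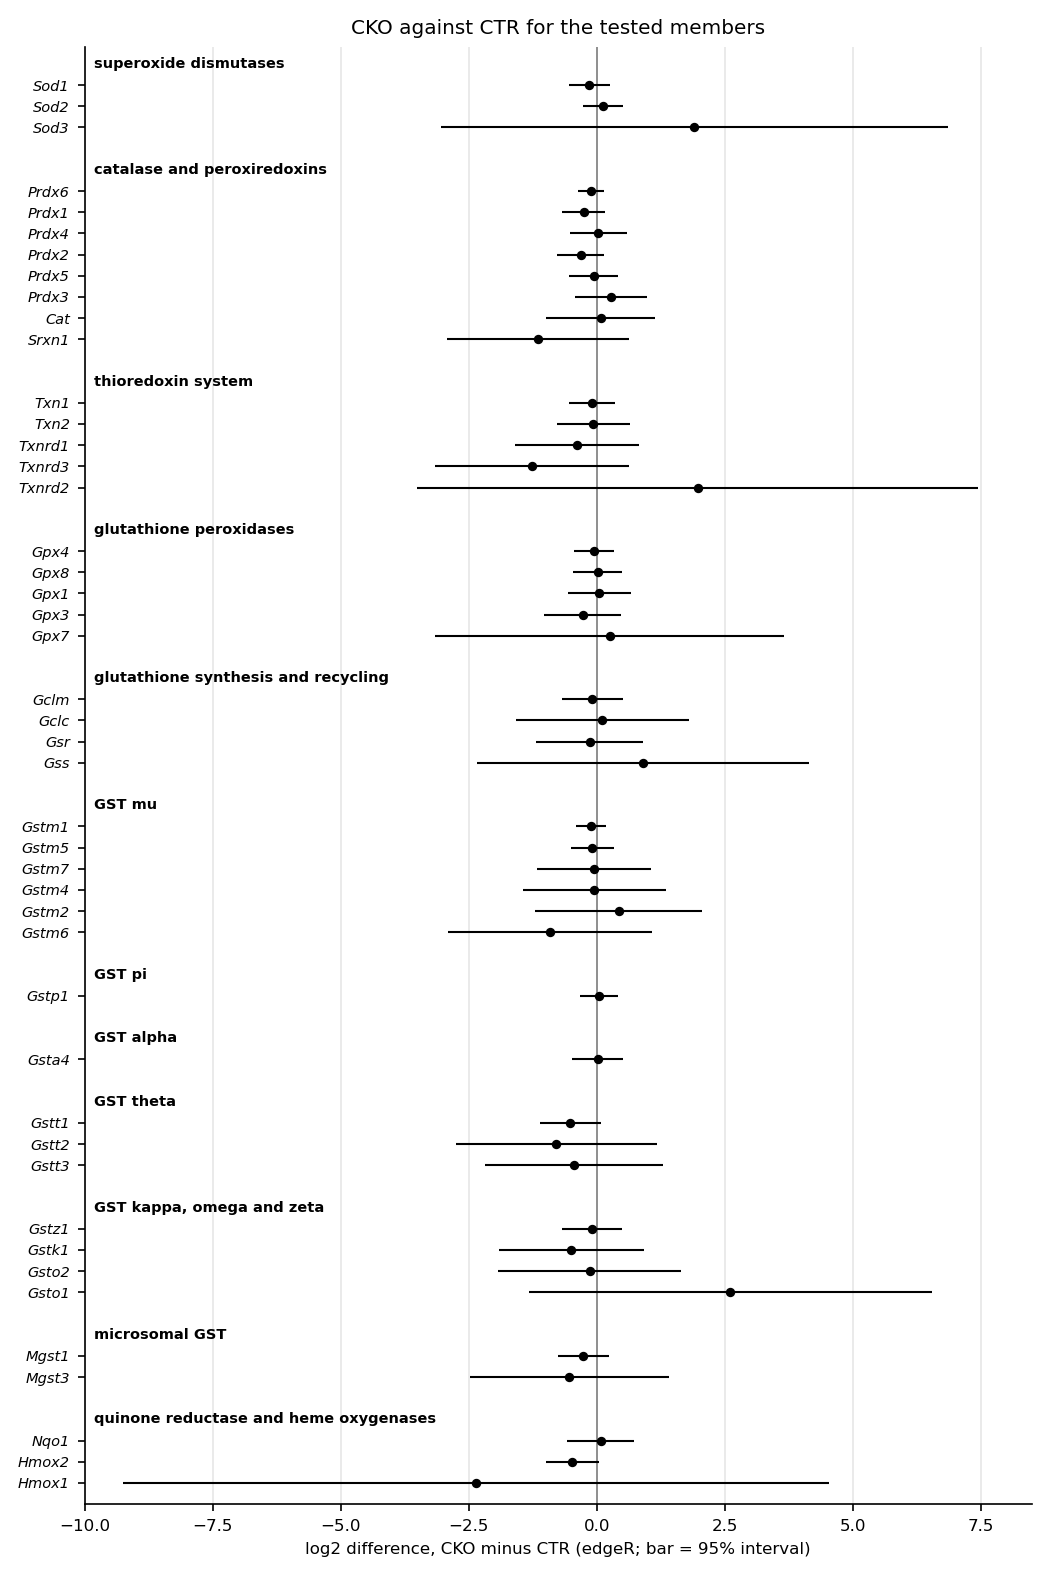
Log2 difference, CKO minus CTR, of the 45 tested members from edgeR, grouped by role, with 95% intervals. All 45 intervals include 0, and they are narrowest for abundant genes such as Prdx6 and Gstm1.

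By class, all 3 tested theta genes, both tested microsomal genes and 5 of 6 mu genes were lower in CKO. The peroxiredoxin and catalase class split into 5 lower and 3 higher, the thioredoxin system into 4 lower and 1 higher, and the glutathione peroxidases into 2 lower and 3 higher. None of these members passed the test, and the counts are descriptions. The 95% intervals were narrower for abundant genes than for low ones. They rest on a spread between samples that may be technical. The 95% interval of the change in CKO ran from -24.5% to 13.8% for Gstm1, from -22.8% to 10.9% for Prdx6, from -26.0% to 26.2% for Gpx4 and from -31.4% to 19.9% for Sod1. It ran from -40.6% to 17.5% for Mgst1 and from -27.3% to 41.2% for Gpx8. For Gstm5 it ran from -29.5% to 26.1%, and for Gstp1 from -20.7% to 34.3%. For the low gene Txnrd3 the interval ran from -88.7% to 55.1%.

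Spread between libraries fell with level, in the set as elsewhere. The median coefficient of variation over the 6 libraries was 55.4% for 17 members at 5 to 50 CPM and 71.6% for all genes at that level. It was 17.1% for 16 members at 200 to 1000 CPM, against 18.6% for all genes there, and 10.3% for the 3 members above 1000 CPM, against 11.7%.

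Hmox2 was the member with the smallest p and the only tested member whose CKO and CTR libraries did not overlap, where 9.62% of all genes had groups that did not overlap (4.99% with CKO above, 4.62% with CKO below). It had 112.3, 116.9 and 112.6 CPM in CKO, against 178.0, 139.7 and 157.5 CPM in CTR. Its log2 difference was -0.47 ± 0.22 (SE), with an unadjusted edgeR p of 0.0646, an adjusted p of 1.0 by edgeR and of 0.190 by DESeq2, and an exact two-sided permutation p of 0.1, the smallest that 3 against 3 allows. Hmox2 (chromosome 16, 4726361 to 4766742, plus strand) overlaps Cdip1 on the opposite strand. Of the 31-base words of its transcripts, 37% also occur in Cdip1 in one orientation or the other, so reads there cannot be told apart without strand. Cdip1 had 54.9, 75.7 and 77.1 CPM in CKO, against 15.2, 122.9 and 93.7 CPM in CTR, and the CTR library with the lowest Cdip1 had the highest Hmox2. The part of this division in the difference was not tested.

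The other 7 members with the smallest p all had overlapping groups. Gstt1 had 212.5, 259.7 and 161.1 CPM in CKO, against 275.5, 246.6 and 385.0 CPM in CTR, with a log2 difference of -0.52 ± 0.26 (SE) and an unadjusted edgeR p of 0.0789. Srxn1 had 6.3, 24.4 and 39.5 CPM in CKO, against 48.6, 26.7 and 79.3 CPM in CTR, with a log2 difference of -1.14 ± 0.77 (SE). Txnrd3 had 8.5, 20.6 and 12.2 CPM in CKO, against 32.9, 14.2 and 51.7 CPM in CTR, with a log2 difference of -1.26 ± 0.82 (SE). For each of these 3 genes the highest library was CTR and the lowest was CKO. Leaving out 1 library moved all 3. Without the third CTR library the log2 difference was -0.31 for Gstt1, -0.69 for Srxn1 and -0.77 for Txnrd3, and without the first CKO library it was -0.69 for Srxn1.

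Gsto1 ran the other way, with 32.5, 29.2 and 10.9 CPM in CKO against 0.3, 11.2 and 0.3 CPM in CTR. Its log2 difference was 2.61 ± 1.70 (SE), and the second CTR library decided its size, since without that library it was 6.19. Prdx2, Prdx1 and Mgst1 completed the list, with unadjusted p of 0.160, 0.201 and 0.258 by edgeR.

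**Figure D5:**
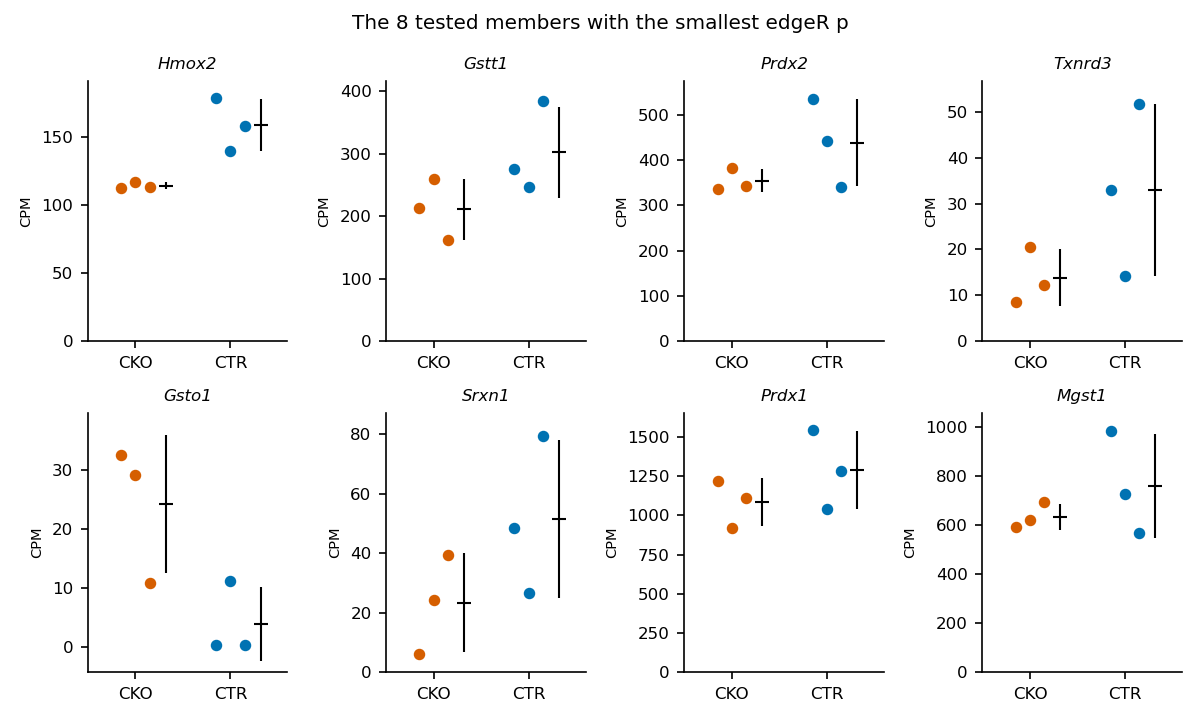
CPM per library of the 8 tested members with the smallest edgeR p, CKO left of CTR. Points are libraries and bars give the mean ± SD of 3. In Hmox2 alone the 2 groups are apart, at 112.3 to 116.9 CPM in CKO and 139.7 to 178.0 CPM in CTR.

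The core of the antioxidant response element was searched in the promoter windows of the 48 members that RefSeq lists there, on both strands. TGACNNNGC or TGAGNNNGC occurred in a window of 16 of them (33.3%), where 30.8% of all 27025 genes had one. Counted by window, it was 26.6% of 64 member windows and 27.8% of all 32851. The members' share thus lay near that of all promoters. The core leaves 3 bases free, and the windows reach only 250 bases before a start. The search therefore cannot tell whether members carry elements that are used, and none farther upstream was sought. The GC box GGGCGG was found in 68.8% of the members and 38.2% of all genes, and TATAAA in 20.8% of the members and 15.7% of all genes. Member windows held a median of 13 CG dinucleotides, where all windows held 7.

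The windows of Prdx1, Srxn1 and Gclm, textbook NRF2 targets picked for having a match, are shown, drawn as above. The Nqo1 window held no match to the core, and RefSeq listed no window for Hmox1, Gclc and Gsr.
Prdx1, chr4:116685349-116685648, plus strand: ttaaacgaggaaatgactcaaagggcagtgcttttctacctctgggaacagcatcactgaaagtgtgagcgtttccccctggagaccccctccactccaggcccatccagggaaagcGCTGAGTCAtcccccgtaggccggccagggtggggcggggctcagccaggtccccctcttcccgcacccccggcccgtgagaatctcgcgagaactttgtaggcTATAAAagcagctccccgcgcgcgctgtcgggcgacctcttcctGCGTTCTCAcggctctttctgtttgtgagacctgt
Srxn1, chr2:152105274-152105573, plus strand: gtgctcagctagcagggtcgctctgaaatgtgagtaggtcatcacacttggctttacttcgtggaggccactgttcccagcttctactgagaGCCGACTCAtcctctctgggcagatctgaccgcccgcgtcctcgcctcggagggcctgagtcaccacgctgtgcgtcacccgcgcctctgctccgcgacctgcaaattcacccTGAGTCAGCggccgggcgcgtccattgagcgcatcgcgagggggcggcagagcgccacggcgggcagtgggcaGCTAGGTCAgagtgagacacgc
Gclm, chr3:122245307-122245606, plus strand: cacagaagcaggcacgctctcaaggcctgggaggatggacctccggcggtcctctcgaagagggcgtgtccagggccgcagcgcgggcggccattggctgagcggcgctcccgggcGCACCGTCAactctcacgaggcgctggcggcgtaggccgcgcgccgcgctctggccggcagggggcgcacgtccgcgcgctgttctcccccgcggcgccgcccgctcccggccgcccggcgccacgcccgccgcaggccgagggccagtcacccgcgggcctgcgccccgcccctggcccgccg

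The Prdx1 window held 1 match to each form of the core and a TATAAA 29 to 24 bases before the start. The Srxn1 window held 3 matches and the Gclm window 1. The 3 genes stood at unlike levels, with means over the 6 libraries of 745 TPM for Prdx1, 144 TPM for Gclm and 16.3 TPM for Srxn1.

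Other genes of the pathway were read from 8 lists. In each list edgeR called 0 genes at an adjusted p of 0.05. DESeq2 called 3 of the 111 listed genes it tested (2.70%, where it called 1.69% of all genes), Slc1a4, Glrx and Txndc17. At an unadjusted edgeR p of 0.05 there were 5 of 110 (4.55%, where 2.75% of all genes passed), these 3 with Aldh9a1 and Ephx1. Groups did not overlap for 13 of the 110, where 9.62% of all genes had such groups. Some genes below are named for a small p, a choice that favours groups that do not overlap.

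Among 14 regulators of the NRF2 pathway, 10 were tested, 7 of them higher in CKO and 3 lower. Nfe2l2 itself had 105.2, 136.0 and 125.9 CPM in CKO, against 72.3, 110.1 and 99.015 CPM in CTR, with overlapping groups and an unadjusted edgeR p of 0.196. Dpp3, a peptidase that binds KEAP1, had 52.0, 29.5 and 34.7 CPM in CKO, against 11.2, 21.5 and 15.7 CPM in CTR, groups that did not overlap, with an unadjusted edgeR p of 0.0871. Park7 (DJ-1) averaged 532 ± 25.6 CPM in CKO and 523 ± 79.3 CPM in CTR (SD, n = 3 each).

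Of 20 other NRF2 target genes, 17 were tested, 5 higher in CKO and 12 lower, with a median log2 difference of -0.27. The ferritin chains Fth1 and Ftl1, which store iron, were the most abundant, with Fth1 at 3459, 3355 and 2940.1 CPM in CKO and 3681, 2869.5 and 3261 CPM in CTR. Ephx1, the microsomal epoxide hydrolase, had 376.5, 392.9 and 290.6 CPM in CKO, against 594.0, 432.8 and 587.4 CPM in CTR. Aldh9a1, an aldehyde dehydrogenase, had 30.9, 59.1 and 65.3 CPM in CKO, against 148.5, 128.0 and 83.3 CPM in CTR. The groups of both genes did not overlap. Their adjusted p was 1.0 by edgeR, and 0.142 for Ephx1 and 0.147 for Aldh9a1 by DESeq2.

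The 18 glutaredoxins and thioredoxin-fold proteins were all tested, 7 higher in CKO and 11 lower. Glrx, the cytosolic glutaredoxin that removes glutathione from proteins, had 50.2, 77.0 and 31.7 CPM in CKO, against 150.4, 146.1 and 113.6 CPM in CTR, with an adjusted p of 0.0435 by DESeq2 and 1.0 by edgeR. Txndc17, a small thioredoxin-like protein, had 58.1, 59.1 and 42.8 CPM in CKO, against 24.2, 24.2 and 22.7 CPM in CTR, with an adjusted p of 0.00620 by DESeq2 and 1.0 by edgeR. Both genes had groups that did not overlap. Nme9, a thioredoxin-domain protein, had the highest CPM of the list and averaged 712 TPM in CKO and 553 TPM in CTR. Its CPM groups did not overlap either.

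In the list of glutathione precursor supply, turnover and export, 14 of 22 genes were tested, 8 higher in CKO and 6 lower. Slc1a4, a carrier of neutral amino acids, had 8.8, 15.2 and 18.96 CPM in CKO, against 44.6, 39.3 and 38.9 CPM in CTR, with an adjusted p of 0.0442 by DESeq2 and 1.0 by edgeR. Glo1, the glyoxalase that uses glutathione to clear methylglyoxal, averaged 362 TPM in CKO and 358 TPM in CTR. Of 16 genes of NADPH supply, 15 were tested, 7 higher in CKO and 8 lower. The mitochondrial Idh2 had 340.4, 491.9 and 437.5 CPM in CKO, against 343.9, 429.0 and 415.0 CPM in CTR, and the cytosolic Idh1 had 159.7, 176.3 and 267.2 CPM in CKO, against 160.8, 196.8 and 112.2 CPM in CTR.

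Selenocysteine is the active residue of several glutathione peroxidases and thioredoxin reductases. Of 22 genes of selenoproteins and of selenocysteine synthesis, 20 were tested, 13 higher in CKO and 7 lower. Sep15 (Selenof) averaged 841 TPM in CKO and 820 TPM in CTR. The 10 methionine sulfoxide reductases and other repair genes had 8 tested, 3 higher in CKO and 5 lower. The 19 sources of superoxide and peroxide had 9 tested, 6 higher in CKO and 3 lower. Among these, Maob, the monoamine oxidase of outer mitochondrial membranes, had 363.5, 231.8 and 253.6 CPM in CKO, against 192.5, 197.0 and 363.8 CPM in CTR, with overlapping groups.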

How the data were processed

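RNA of sorted ependymal cells was measured in 6 libraries, 3 CKO and 3 CTR. Reads were handled with CASAVA 1.8, cutadapt 1.11 and kallisto 0.42.5, per the submitters' processing notes. The deposited files hold an estimated count and a TPM for each gene, per the file headers. The build is not given in the sources used here. Estimated counts were rounded, filtered by filterByExpr (11574 genes kept), TMM-scaled, and compared in edgeR 4.0.16 (quasi-likelihood test, robust, genotype only, R 4.3.3). p-values were adjusted by Benjamini-Hochberg over all genes tested. DESeq2 1.42.0 and limma 3.58.1 were alternatives. Counts were whole (within 0.05) in all libraries for 40 of 49 detected members. The exceptions were Prdx6, Gstp1, Prdx1, Prdx5, Txn2, Gclm, Hmox2, Sod2 and Gstp2. Kallisto shares reads between similar sequences by estimate. Shared 31-base words were counted in GENCODE M21 transcripts. Members and lists were chosen with earlier results of these data known. Log2 differences are given for the 8 most abundant members, the 8 with the smallest p and any with groups that do not overlap at 5 CPM or more. From each pathway list genes were drawn from the 2 most abundant and the 2 with the smallest p, and other members are given by level. Depth was 13401499 to 15689579 counts. Genes of few counts were caught unevenly between libraries, and the cause was not tested. Other tests, filters and scalings, and fits without each library, were also run.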

Additional observations from a re-analysis of the deposited data

How the results depend on the processing

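The count of genes called was 0 under every alternative run except DESeq2, which called 200 (111 higher in CKO, 89 lower), and edgeR on genes averaging 50 CPM or more, which called 2 (1 higher, 1 lower). No alternative called a member (0), and each fit without 1 library called 0 genes and 0 members. With the strict filter 18 members were lower, since only 28 were tested, and without 1 library 26 to 32 were lower. Ccn1 passed the adjusted threshold by DESeq2 alone (log2 difference -2.224) and ranged from -2.495 to -1.968 without 1 library. Gpx8 changed sign under limma-voom (-0.0086), log2(TPM + 1) with and without the filter (-0.0079), log2(TPM + 0.1) (-0.0079) and the replicate block (-0.0127), and without the third CKO library (-0.23) or the third CTR library (-0.03), with a range of -0.23 to 0.16 without 1 library. Gpx4 (-0.17 to 0.0971) and Gstm5 (-0.18 to 0.0991) changed sign without the first CTR library, and Gstp1 (-0.0135 to 0.14) without the first CKO library. Without 1 library the other named members kept their sign, at -0.17 to -0.02 for Gstm1, -0.17 to -0.04 for Prdx6, -0.26 to -0.05 for Sod1, -0.43 to -0.02 for Mgst1, -0.38 to -0.10 for Prdx1, -0.46 to -0.14 for Prdx2, -0.69 to -0.31 for Gstt1, -1.75 to -0.69 for Srxn1, -1.67 to -0.77 for Txnrd3, -0.55 to -0.38 for Hmox2 and 2.07 to 6.19 for Gsto1. The value nearest 0 came without the first CTR library for Prdx6, Sod1, Mgst1, Prdx1, Prdx2 and Hmox2, and without the third CKO library for Gstm1. The first CTR library had the fewest genes with a count, 12460 against 13024 to 14530 elsewhere. Its mitochondrial share was the highest, at 8.385% against 6.434% to 7.489%. The cause was not tested. As a share of estimated counts, not scaled for length, Gstm1 held 82.9% of its class, Prdx6 59.7%, Sod1 64.1%, Gstt1 83.2%, Txn1 43.7% and Gstz1 65.4%. Between libraries the mean correlation was 0.643 within a genotype and 0.646 across genotypes. Deviations of same-numbered CKO and CTR samples from their group means had correlations of 0.008, 0.031 and 0.015 over genes. For unlike-numbered samples these ran from -0.025 to 0.007. All lay near 0 in libraries with much spread, so they cannot show whether the numbers pair samples. Under the replicate block 0 genes and 0 members were called, 28 members were lower, and Ccn1 was at -2.274.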
